A study of Mus musculus with 3 samples.

Results

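The heat shock and immediate early genes described here are 10 stress-responsive genes of mouse liver, 4 that encode cytosolic chaperones or their partners (Hspa1b, Hspa8, Hsph1 and Dnajb1) and 6 that encode rapidly induced nuclear proteins (Fos, Jun, Junb, Egr1, Ier2 and Atf3). They were taken by gene symbol, and every probe set annotated to a member was kept separately, which gave 15 probe sets for 10 of the 8251 genes with a single symbol on the array. A single probe set stood for 6 of these genes and several for the other 4. The arrays carried liver RNA of apolipoprotein E-deficient male mice, homozygous for the knockout on a C57BL/6JxOLA129 background, that had eaten the test diets for 12 weeks starting at 3 months of age. There were 3 diets with 1 array each. The t10,c12-CLA diet and the c9,t11-CLA diet contained 1.0% by weight of the named isomer of conjugated linoleic acid (CLA), and the control diet contained the same amount of linoleic acid. The design text describes semi-purified diets with 30% of the energy as fat, whereas the sample labels speak of a western diet. To these diets 9, 10 and 10 mice had been assigned, and the sources do not say whether RNA of several livers was combined on an array. All 3 groups lacked apolipoprotein E, so that no comparison with a wild-type liver was made.

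Heat shock proteins fold new or damaged proteins. Under heat or other proteotoxic stress, heat shock factor 1 binds heat shock elements, inverted repeats of the letters GAA, and raises transcription of the inducible members. Immediate early genes are switched on within minutes of a growth factor, cytokine or stress signal without new protein synthesis, largely by transcription factors already present in the cell. Their products include the subunits of AP-1, a dimer of Fos and Jun family proteins. In liver these genes are known for their response to partial hepatectomy, feeding and inflammation, and also to the handling of tissue.

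Each value is a MAS5 signal, the hybridisation intensity of a probe set on a linear scale. With 1 array per diet there is no replicate spread, no test between diets and no p-value, and each difference below compares arrays. Signals at or under 490.3, the median over all probe sets and arrays, were treated as not distinguishable from background, and this value is called the floor. A difference was measured where both arrays were above the floor. Where only 1 array was above it, the brighter signal over the floor is given as a bound, "at least N-fold". A 2-fold difference, a log2 difference of 1 in size, was the fixed size for counting. The only spread at hand is technical. Among genes with more than 1 measured probe set, the SD of a single log2 difference was 0.39 for t10,c12-CLA over control (726 pairs), 0.50 for c9,t11-CLA over control (679 pairs) and 0.49 for t10,c12-CLA over c9,t11-CLA (707 pairs). It does not include variation between mice.

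The arrays were close in median signal but not in highest signal. The maximum was 71110.7 on t10,c12-CLA, 135006.8 on c9,t11-CLA and 70778.2 on control. Median signals were 486.5, 523.5 and 457.2 on the t10,c12-CLA, c9,t11-CLA and control arrays, and 49.8%, 51.6% and 48.6% of the 12488 probe sets lay above the floor. Apoe, the disrupted gene, gave 4287.5, 8695.0 and 6570.3 in the same order. No wild-type array was included, and whether this probe set lies inside the disrupted part is not stated, so these values do not check the genotype. Ratios of 3′ to 5′ signal, a sign of RNA integrity, were 0.78, 0.98 and 1.06 in Gapdh, and in beta-actin they were 1.35, 1.89 and 1.40. All 8 hepatocyte markers were above the floor on every array. None of 4 bile duct markers was above it on any array, and T cell markers were above it in 0, 1 and 1 of 6 cases.

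Across the members, Hspa1b was the gene that differed most between the diets. Relative to control its signal was 2.15-fold lower with t10,c12-CLA and at least 3.34-fold lower with c9,t11-CLA. Hspa8 and Egr1 were also lower on both CLA arrays, by less than 2-fold. Jun and Junb were higher on t10,c12-CLA, likewise by less than 2-fold. On c9,t11-CLA they were 0.20 and 0.25 above control on the log2 scale, and 0.00 and 0.05 with arrays set to equal medians. Ier2, Hsph1, Dnajb1 and Atf3 lay on opposite sides of control on the CLA arrays. Fos was below the floor on all 3 arrays. Both comparisons with control use the same control array, so a high or low control signal moves both of them.

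**Figure D1:**
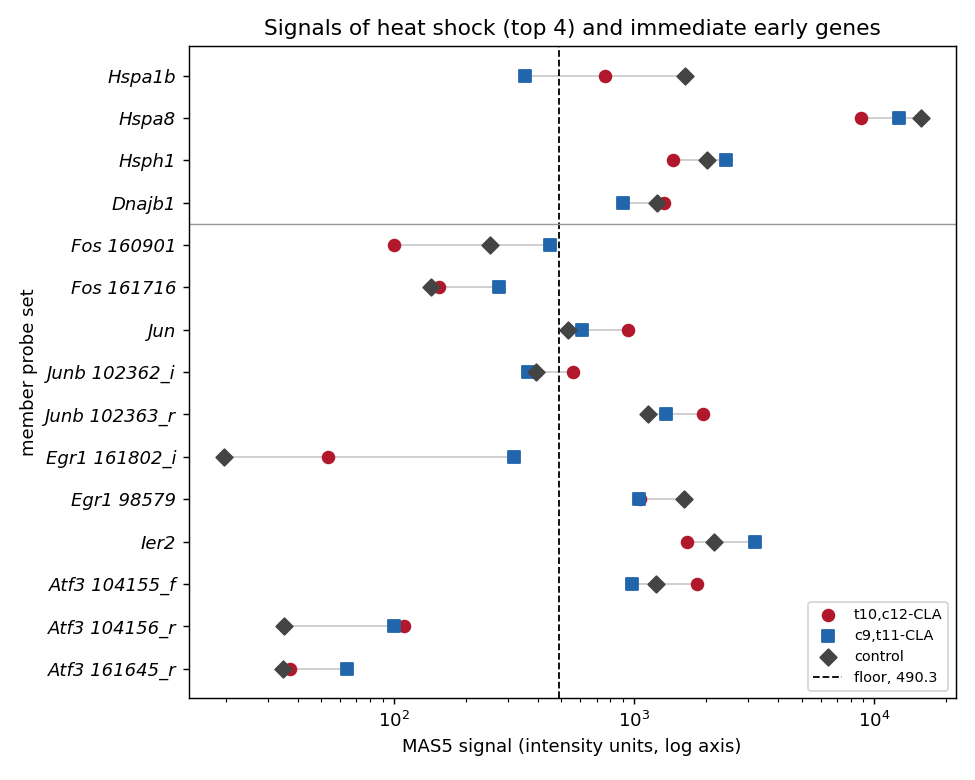
MAS5 signal (x, log axis) of each of the 15 member probe sets (y) on the t10,c12-CLA (red circle), c9,t11-CLA (blue square) and control (grey diamond) arrays, with the floor of 490.3 as a dashed line and a grey line joining the lowest and highest array. Both CLA signals of Hspa1b lie left of control, and the Fos probe sets lie left of the floor on every array.

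Of the 15 probe sets, 8 were above the floor on all 3 arrays, each from a different gene. The Hspa1b probe set was above it on 2 arrays and a second Junb probe set on 1. The remaining 5 were below it on every array. They were both probe sets of Fos, 1 of Egr1 and 2 of Atf3, so Fos was the member with no measured difference. In the comparison of t10,c12-CLA with control, 9 probe sets were measured. Of these 1 was at least 2-fold lower, against 1.87% of all 5037 measured probe sets, and 0 were at least 2-fold higher, against 2.18%. For c9,t11-CLA over control 8 were measured, with 0 at least 2-fold lower, against 2.76% of 4932, and 0 at least 2-fold higher, against 3.24%. The bound of Hspa1b in that comparison was past 2-fold lower, as it was in 4.01% of the 1321 probe sets above the floor on 1 of those arrays. For t10,c12-CLA over c9,t11-CLA 8 were measured, with 0 at least 2-fold higher, against 3.43% of 5017, and 0 at least 2-fold lower, against 2.65%. With arrays set to equal medians, the background shares were 1.66% higher and 2.62% lower for t10,c12-CLA over control, 1.86% and 5.17% for c9,t11-CLA over control, and 4.64% and 1.75% between the isomers. That scaling put the median log2 difference of all measured probe sets for c9,t11-CLA over control at -0.15, against 0.03 without it.

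Hspa1b encodes the stress-inducible cytosolic Hsp70 chaperone. Its signal was 760.3 with t10,c12-CLA and 351.0 with c9,t11-CLA, against 1637.7 with the control diet. The control array was the highest and the c9,t11-CLA array, below the floor, the lowest. The log2 difference of t10,c12-CLA over control was -1.11, and 60 of the 5037 measured probe sets had a lower value. For c9,t11-CLA over control the bound on the log2 scale was -1.74. Between the isomers, t10,c12-CLA was at least 1.55-fold higher than c9,t11-CLA, short of the 2-fold size. With the floor lowered to the pooled 25th percentile, 144.9, all 3 signals were measured, and Hspa1b was 4.67-fold lower on c9,t11-CLA than on control and 2.17-fold higher on t10,c12-CLA than on c9,t11-CLA.

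Hspa1a, the neighbouring and nearly identical Hsp70 gene, was looked up after its values were seen because probes for the pair may share transcripts. Its own probe set gave 606.6 on t10,c12-CLA and 242.0 on c9,t11-CLA, against 779.9 on control, the same order of arrays as Hspa1b. It was 1.29-fold lower on t10,c12-CLA and at least 1.59-fold lower on c9,t11-CLA. Which of the 2 genes a signal came from cannot be told apart by these values. Their promoters are shown because Hspa1b carries the largest difference and because they show how alike the genes are. The RefSeq windows of assembly GRCm38.p6, from 250 bases before to 50 bases after the annotated start, lie on the minus strand at chr17:34959189-34959488 (Hspa1b) and chr17:34972107-34972406 (Hspa1a). They differ at 4 of 300 bases, 98.7% identity. Capitals mark the heat shock element.
Hspa1b: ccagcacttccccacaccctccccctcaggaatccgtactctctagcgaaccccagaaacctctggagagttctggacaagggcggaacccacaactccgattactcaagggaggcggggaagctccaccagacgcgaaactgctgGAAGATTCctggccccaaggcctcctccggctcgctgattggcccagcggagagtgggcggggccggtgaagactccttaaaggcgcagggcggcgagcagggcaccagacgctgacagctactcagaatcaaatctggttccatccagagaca
Hspa1a: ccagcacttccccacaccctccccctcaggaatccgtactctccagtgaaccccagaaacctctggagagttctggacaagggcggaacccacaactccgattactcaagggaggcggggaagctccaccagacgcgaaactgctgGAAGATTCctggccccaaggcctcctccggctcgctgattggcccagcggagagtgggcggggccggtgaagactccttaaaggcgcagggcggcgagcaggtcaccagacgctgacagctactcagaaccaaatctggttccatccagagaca

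The motif searched for was the inverted repeat GAANNTTC or TTCNNGAA, each of which reads the same on both strands. It occurred 1 time in each Hsp70 window, with its first base 104 bases before the start. Of all 32851 mouse promoter windows of this length, 15.1% held at least 1 match, so a match is common. Windows were searched for 7 of the 10 members, and not for Hspa8, Egr1 and Ier2. Among the other heat shock members the Hsph1 window held 3 matches, at 33 bases before the start and at positions 37 and 42 after it, of which the last pair overlap. A second annotated start shifts the same matches to 54 before and to 16 and 21 after. Neither Dnajb1 window held any. The Hsph1 window, chr5:149636287-149636586 on the minus strand of GRCm38.p6, is shown because it holds the most matches of the members while its signal differed less than that of Hspa1b. Capitals again mark the matches.
Hsph1: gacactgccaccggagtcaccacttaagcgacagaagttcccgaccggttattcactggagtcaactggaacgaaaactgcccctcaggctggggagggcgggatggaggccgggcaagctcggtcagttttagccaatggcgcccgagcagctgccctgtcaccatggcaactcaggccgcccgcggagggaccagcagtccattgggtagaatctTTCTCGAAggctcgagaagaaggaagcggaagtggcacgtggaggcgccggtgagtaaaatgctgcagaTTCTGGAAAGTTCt

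Hsph1 encodes the Hsp110 chaperone, a nucleotide exchange factor of Hsp70. It gave 1460.9 on t10,c12-CLA and 2418.3 on c9,t11-CLA, against 2027.5 on control. The CLA arrays lay on either side of control, with log2 differences of -0.47 and 0.25. The isomers differed by -0.73, t10,c12-CLA being 1.66-fold lower than c9,t11-CLA.

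Hspa8 encodes Hsc70, the Hsp70 protein made in unstressed cells, which also uncoats clathrin vesicles. Its signal was 8856.9 on t10,c12-CLA and 12692.5 on c9,t11-CLA, against 15650.9 on control. It was 1.77-fold lower on t10,c12-CLA and 1.23-fold lower on c9,t11-CLA. The log2 difference on t10,c12-CLA, -0.82, had 181 of 5037 measured probe sets below it, whereas that on c9,t11-CLA, -0.30, had 1209 of 4932 below it. Hspa8 has many pseudogene copies, and their share in the signal was not tested.

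Dnajb1 encodes an Hsp40 partner that delivers substrates to Hsp70 and stimulates its ATPase. It gave 1340.7 on t10,c12-CLA and 901.7 on c9,t11-CLA, against 1247.6 on control. It was close to control on t10,c12-CLA, with a log2 difference of 0.10, and 1.38-fold lower on c9,t11-CLA, with -0.47. The 4 heat shock members thus had log2 differences of -1.11 to 0.10 on t10,c12-CLA, with 3 below 0. On c9,t11-CLA the 3 measured members had -0.47 to 0.25, with 2 below 0, beside the bound of Hspa1b. Over all measured probe sets 49.6% were above 0 on t10,c12-CLA and 52.7% on c9,t11-CLA.

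**Figure D2:**
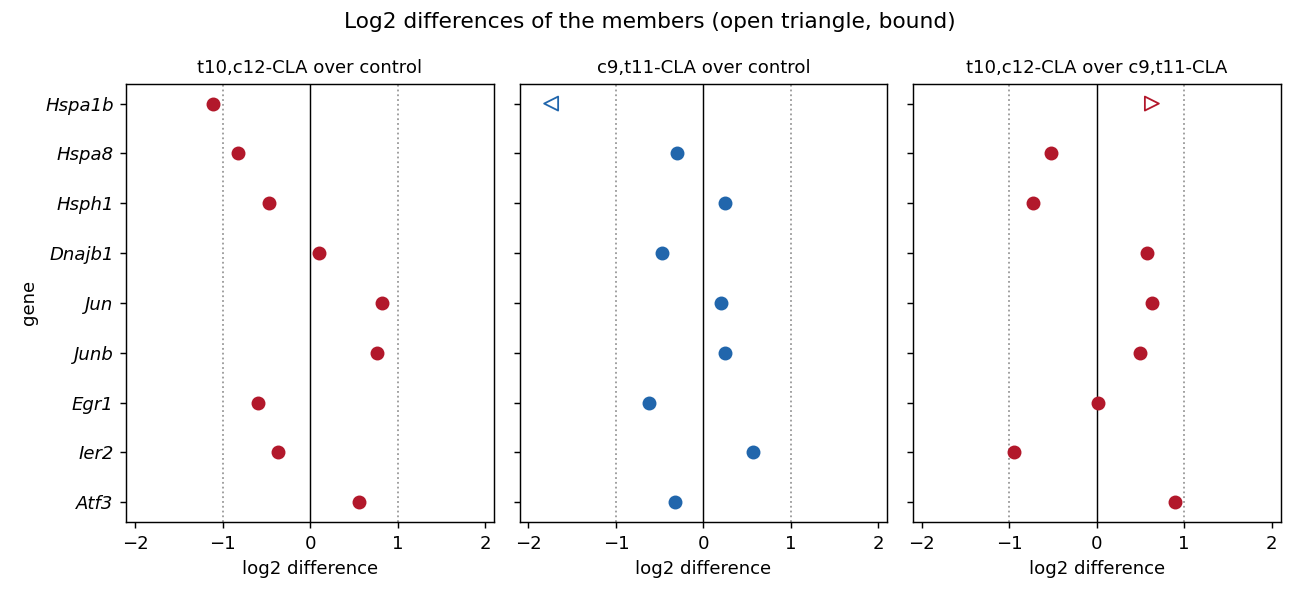
Log2 difference (x) of the 9 members with a probe set above the floor on at least 2 arrays (y), for t10,c12-CLA over control, c9,t11-CLA over control and t10,c12-CLA over c9,t11-CLA. Filled circles are measured differences, open triangles the bounds of Hspa1b, and dotted lines the 2-fold size. Hspa1b is beyond 2-fold in both comparisons with control, and Ier2 and Atf3 lie farthest from 0 between the isomers.

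Among the immediate early genes, the AP-1 subunits Jun and Junb had their highest signals on the t10,c12-CLA array. Jun, the main transactivating partner in AP-1, gave 942.4 on t10,c12-CLA and 610.2 on c9,t11-CLA, against 532.7 on control, the last just above the floor. It was 1.77-fold higher on t10,c12-CLA and 1.15-fold higher on c9,t11-CLA than on control, the second of which was a log2 difference of 0.02 after quantile normalization. For t10,c12-CLA, 197 of 5037 measured probe sets had a higher log2 difference than its 0.82.

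Junb encodes a Jun family protein that can restrain Jun activity. Its brighter probe set gave 1941.3 on t10,c12-CLA and 1368.1 on c9,t11-CLA, against 1150.3 on control, with log2 differences of 0.76 and 0.25. The dimmer probe set gave 557.7 on t10,c12-CLA and 362.4 on c9,t11-CLA, against 390.8 on control, and was above the floor on the t10,c12-CLA array only. Both were highest on t10,c12-CLA, and they ordered c9,t11-CLA and control differently. Both identifiers carry a mark for an incomplete or relaxed choice of probes.

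Fos encodes the inducible partner of Jun in AP-1. Its probe sets gave 100.5 and 154.0 on t10,c12-CLA and 446.0 and 274.7 on c9,t11-CLA, against 252.6 and 142.9 on control. All of these were below the floor of 490.3, and both probe sets had their highest signal on the c9,t11-CLA array. With the lower floor of 144.9, the brighter probe set was 1.77-fold higher on c9,t11-CLA than on control and at least 3.08-fold lower on t10,c12-CLA than on c9,t11-CLA. The other was 1.78-fold lower on t10,c12-CLA than on c9,t11-CLA. For t10,c12-CLA over control the probe sets went opposite ways, at least 1.74-fold lower for the first and at least 1.06-fold higher for the second.

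Egr1 encodes a zinc finger transcription factor induced through the MAP kinase pathway. Its measured probe set gave 1066.6 on t10,c12-CLA and 1055.2 on c9,t11-CLA, against 1616.5 on control. The CLA arrays were close to each other, with a log2 difference of 0.02, and were 1.52-fold and 1.53-fold lower than control. The second probe set, marked for incomplete probe selection, gave 53.1, 316.2 and 19.6 on t10,c12-CLA, c9,t11-CLA and control, below the floor on each array and in another order. These probe sets of Egr1 disagreed on both CLA arrays, where the dim one was above control and the bright one below.

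Ier2 encodes a short-lived nuclear protein of the early response to growth factors. It gave 1666.4 on t10,c12-CLA and 3189.9 on c9,t11-CLA, against 2150.8 on control. It was 1.48-fold higher on c9,t11-CLA and 1.29-fold lower on t10,c12-CLA than on control. Between the isomers t10,c12-CLA was 1.91-fold lower, a log2 difference of -0.94 with 180 of 5017 measured probe sets lower. Ier2, Hsph1 and both Fos probe sets share the c9,t11-CLA array as their highest, Fos below the floor. So do the dim Egr1 probe set and the dimmest Atf3 probe set, which were also below the floor on every array.

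Atf3 encodes a transcription factor of the ATF family that is induced by many stresses and binds cyclic AMP response elements. Its brightest probe set gave 1831.4 on t10,c12-CLA and 984.6 on c9,t11-CLA, against 1239.7 on control. It was 1.48-fold higher on t10,c12-CLA and 1.26-fold lower on c9,t11-CLA than on control, and 1.86-fold higher on t10,c12-CLA than on c9,t11-CLA. That difference between the isomers, 0.90 on the log2 scale, was exceeded by 238 of 5017 measured probe sets and reached 1.00 with arrays set to equal medians. The identifier of this probe set marks probes that can match other members of a sequence family. The other probe sets gave 110.6, 100.8 and 35.0, and 37.2, 64.1 and 34.8, on t10,c12-CLA, c9,t11-CLA and control, far below the floor, so no second measurement of Atf3 was had.

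The promoters of Jun and Atf3 are shown because these genes had their highest signal on t10,c12-CLA and belong to the families that bind ATF and AP-1 sites. The windows lie on the minus strand of GRCm38.p6 at chr4:95052173-95052472 (Jun) and chr1:191183284-191183583 (Atf3). The motifs searched on both strands were the AP-1 site TGANTCA, the cyclic AMP response element core TGACGT, the variant site TGACNTCA, the heat shock element above and the CArG box of serum response factor by its usual consensus. The Jun window held 1 variant site, beginning 45 bases before the start, and 1 heat shock element, beginning at 128 bases before it. The Atf3 window held 1 core on the opposite strand, beginning 8 bases before the start. Capitals mark these matches.
Jun: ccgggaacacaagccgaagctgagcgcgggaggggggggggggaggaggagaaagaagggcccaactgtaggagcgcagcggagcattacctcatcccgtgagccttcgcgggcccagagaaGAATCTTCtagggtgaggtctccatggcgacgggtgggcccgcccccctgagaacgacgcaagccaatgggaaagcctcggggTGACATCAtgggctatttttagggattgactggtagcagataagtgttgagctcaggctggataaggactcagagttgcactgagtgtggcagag
Atf3: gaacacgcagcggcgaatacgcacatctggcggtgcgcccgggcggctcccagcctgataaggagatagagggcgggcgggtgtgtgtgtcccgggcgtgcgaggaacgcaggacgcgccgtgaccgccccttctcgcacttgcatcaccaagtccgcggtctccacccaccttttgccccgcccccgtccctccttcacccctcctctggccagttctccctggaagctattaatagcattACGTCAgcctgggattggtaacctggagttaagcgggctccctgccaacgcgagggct

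The Fos window also held 1 core, beginning 66 bases before the start, and the Junb window held none of these motifs. No AP-1 site or CArG box was found in the 4 windows of Fos, Jun, Junb and Atf3. These windows reach only 250 bases before the start, so sites farther upstream were not searched. Egr1 and Ier2 were not searched at all. Over all windows the shares with a match were 7.81% for the AP-1 site, 7.51% for the core, 8.83% for the variant site and 1.63% for the CArG box. Where the core is followed by CA it is also a variant site. A match describes letters only and is no evidence of binding.

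On the t10,c12-CLA array, where Jun, Junb and Atf3 were highest, macrophage markers were higher too. All 10 measured macrophage and Kupffer cell markers were above control there, by their brightest probe sets, at a median of 0.42 on the log2 scale, 1 of them 2-fold higher or more. Over all measured genes 49.1% were above control and 2.05% higher by that size. Second probe sets of C1qb and Csf1r were below control, at -0.47 and -0.17. The summed signal of the 11 markers on the array was 98971, 63854 and 66201 on t10,c12-CLA, c9,t11-CLA and control. On c9,t11-CLA 5 of 10 were above control, against 52.2% over all measured genes. Neutrophil markers summed to 5892, 7561 and 5053, with 3, 6 and 3 of 8 above the floor, and endothelial markers to 16760, 12810 and 12881, with 6, 6 and 4 of 7. Hepatocyte markers summed to 204881, 381448 and 226336. On c9,t11-CLA, where Hspa1b was lowest, 6 of 8 were above control, against 52.2% over all measured genes. Their log2 differences ran from -0.94 to 1.83, with a median of 0.72. That median was 0.52 with equal medians and 0.51 after quantile normalization, where 5 of 8 were above control. The part of cell makeup in the members' signals was not tested. In a piece of liver, fewer cells of a type and less RNA per cell cannot be told apart.

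**Figure D3:**
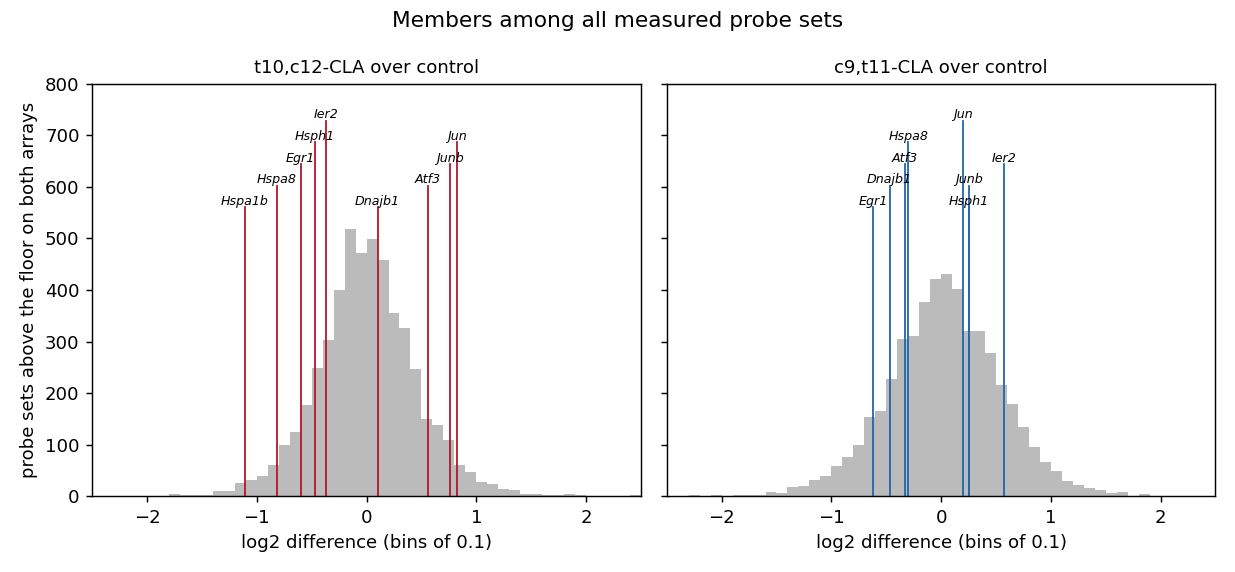
Number of probe sets (y) by log2 difference (x, bins of 0.1) over all measured probe sets, for t10,c12-CLA over control (5037) and c9,t11-CLA over control (4932), with each measured member as a vertical line. Hspa1b lies at -1.11 and Jun at 0.82 on t10,c12-CLA, while the measured members on c9,t11-CLA lie between -0.62 and 0.57.

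The rest of the heat shock response on the t10,c12-CLA array lay mostly below control, by small amounts. The list held 40 genes other than the members, most of them chaperones, co-chaperones and heat shock factors, and the haem-degrading enzyme gene Hmox1 was among the others. Of these, 34 were on the array and 25 measured. The 25 included Hspa1a, at -0.36, whose signal cannot be told apart from that of the member Hspa1b. In the comparison 21 were below control and 4 above, with a median log2 difference of -0.24, against -0.01 over all 4391 measured genes, of which 49.1% were above control. None of the 25 was 2-fold either way, and 2 of 29 were 2-fold lower with the floor at the 25th percentile. For genes by their brightest probe set the background shares were 1.87% lower and 2.05% higher by 2-fold or more. Hspe1, the mitochondrial co-chaperonin Hsp10, had the lowest log2 difference at -0.72, with 8212.8 on t10,c12-CLA against 13494.2 on control. Stip1, which links Hsp70 to Hsp90, stood at -0.61 and Dnajb4, another Hsp40, at -0.56. Fkbp4, an Hsp90-bound immunophilin, stood at -0.45, but a second probe set at 0.12. Chordc1, an Hsp90 partner, and St13, an Hsp70 partner, stood at -0.43 and -0.42, and second probe sets at -0.03 and -0.08. All 8 subunits of the cytosolic chaperonin ring, which folds actin and tubulin, were also below control, with values of -0.60 to -0.07 and a median of -0.27. The direction of these medians held under each alternative scaling and floor.

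On the c9,t11-CLA array the same list had 16 of 25 measured genes below control and 9 above, with a median of -0.17, against 0.02 over all 4324 measured genes, of which 52.2% were above control. None was 2-fold either way, against background shares of 2.78% lower and 2.98% higher, and 2 were 2-fold lower with arrays set to equal medians. Dnajc3, an endoplasmic reticulum Hsp40, had the lowest value at -0.91, with other probe sets at -0.24 and -1.49. Hspb2, a small heat shock protein, stood at -0.84 and Chordc1 at -0.80, and the second Chordc1 probe set at 0.17. Bag3, an Hsp70 co-chaperone of selective autophagy, stood at -0.80, with a second probe set at 0.13. The mitochondrial chaperonin Hspd1 stood at -0.67. Hspa4l, an Hsp110 family protein, stood at 0.79. The chaperonin ring had 6 of 8 subunits below control and a median of -0.11.

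**Figure D4:**
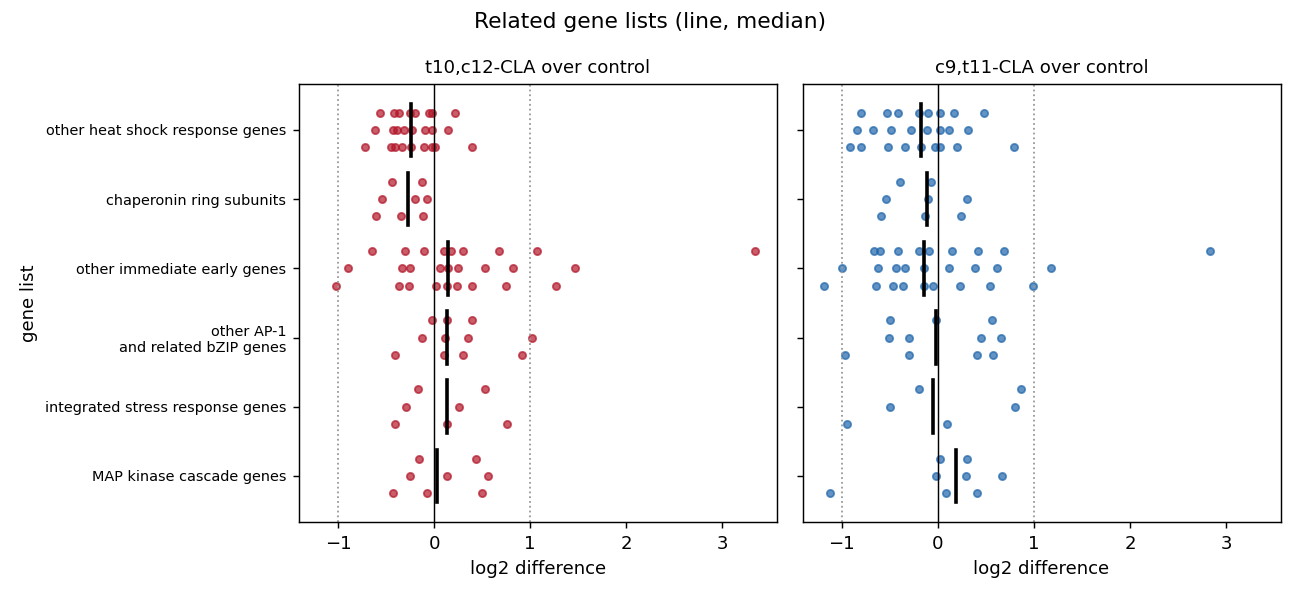
Log2 difference (x) of each measured gene of 6 related lists (y) for t10,c12-CLA over control and c9,t11-CLA over control, with black lines at the list medians and dotted lines at 2-fold. All 8 chaperonin ring subunits lie below 0 on t10,c12-CLA, and Gadd45g lies far to the right in both panels.

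Several of the other immediate early genes were past 2-fold on a CLA array. Of 53 listed genes, 44 were on the array and 27 measured in each comparison with control. On t10,c12-CLA 18 were above control and 9 below, with a median of 0.15, and 4 were higher and 1 was lower by 2-fold or more, against 2.05% higher and 1.87% lower over all measured genes, of which 49.1% were above control. The 4 higher became 3 with equal medians and 2 when the floor was the 75th percentile, and the 1 lower became 0 with that floor or with a pseudocount of 50. Gadd45g, a growth arrest gene, gave 5143.1 on t10,c12-CLA and 3618.0 on c9,t11-CLA, against 507.5 on control, just above the floor, and was 10.1-fold and 7.13-fold higher. Ccn2, connective tissue growth factor, gave 1542.3 on t10,c12-CLA and 507.8 on c9,t11-CLA, against 558.0 on control. It was 2.76-fold higher than control on t10,c12-CLA, and its log2 difference on c9,t11-CLA was -0.14. Btg2, an antiproliferative early gene, gave 4319.4 and 4053.1 on the t10,c12-CLA and c9,t11-CLA arrays, against 1792.6 on control, and was 2.41-fold and 2.26-fold higher. Dusp1, a phosphatase that switches off MAP kinases, gave 3657.2 and 2689.7, against 1746.3, with log2 differences of 1.07 and 0.62.

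Klf10, an early gene of TGF-beta signalling, was the gene of this list at least 2-fold lower on both CLA arrays. It gave 744.0 on t10,c12-CLA and 664.7 on c9,t11-CLA, against 1506.6 on control, with log2 differences of -1.02 and -1.18. Zfp36l1, an RNA-binding protein that promotes mRNA decay, stood at -0.89 on t10,c12-CLA and -0.66 on c9,t11-CLA. Dusp2, a nuclear MAP kinase phosphatase, was at least 2.30-fold lower on t10,c12-CLA, where it gave 197.7, against 1127.7 on control. On c9,t11-CLA 11 genes were above control and 16 below, against 52.2% above control over all measured genes. The list median there was -0.14, against 0.02 over all measured genes, and became -0.02 after quantile normalization. There 2 were at least 2-fold higher, Gadd45g and Btg2, and Dusp6, a phosphatase of ERK, gave 1892.4 against 3776.3 on control, just short of 2-fold. Over all measured genes 2.98% were higher and 2.78% lower by that size. The count of 2 higher was 1 with equal medians and 3 after quantile normalization, and the count of 1 lower was 2 under both. Cebpb and Cebpd, transcription factors of the acute phase response, stood at 0.99 and 0.69 there, and at 0.68 and 0.82 on t10,c12-CLA.

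Of the remaining AP-1 and related bZIP genes, 11 were measured in each comparison with control. On t10,c12-CLA 8 were above control, with a median of 0.14, against 49.1% above control over all measured genes. There 1 was at least 2-fold higher, against 2.05% over all measured genes. On c9,t11-CLA 5 were above control, with a median of -0.02, which was 0.05 after quantile normalization. Over all measured genes 52.2% were above control there. Jund, the Jun family member made in resting cells, gave 27311.8 on t10,c12-CLA and 21484.8 on c9,t11-CLA, against 14452.2 on control. It was 1.89-fold and 1.49-fold higher, so that the 3 Jun family genes had the same order of arrays by their brightest probe sets. Bach1, a haem-regulated repressor, stood at 1.02 and 0.66, but its second probe set at -0.19 and -1.0, and it was short of 2-fold with a pseudocount of 50 or equal medians. Atf5, a stress-induced ATF protein, stood at 0.30 on t10,c12-CLA and -0.97 on c9,t11-CLA, and Atf4, the central factor of the integrated stress response, at -0.41 and -0.50. Nfe2l1, a regulator of proteasome genes, stood at 0.39 on t10,c12-CLA with a second probe set at 1.59. Batf3, an inhibitor of AP-1 activity, stood at 0.35 and 0.56, and Mafg, a small Maf protein, at -0.51 on c9,t11-CLA with a second probe set at 0.90. Fosb, a Fos family gene outside the named-gene rule, gave 1161.3 and 1403.1, against 1055.1 on control.

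Of the integrated stress response genes, which Atf4 and Atf3 help control, 7 were measured on t10,c12-CLA and 6 on c9,t11-CLA. None of these measured differences from the control array was 2-fold. Over all measured genes 2.05% were higher and 1.87% lower by 2-fold or more on t10,c12-CLA. The shares on c9,t11-CLA were 2.98% and 2.78%. Ppp1r15a, a phosphatase subunit that restores translation, gave 1269.1 on t10,c12-CLA and 1134.9 on c9,t11-CLA, against 439.6 on control, which puts it at least 2.59-fold higher with t10,c12-CLA and at least 2.31-fold higher with c9,t11-CLA. Asns, asparagine synthetase, stood at 0.76 on t10,c12-CLA and 0.10 on c9,t11-CLA. Slc3a2, an amino acid transporter subunit, stood at 0.53 and -0.94. Shmt2, a mitochondrial enzyme of serine use, and Eif4ebp1, a brake on translation, stood at 0.87 and 0.80 on c9,t11-CLA. Of the MAP kinase cascade genes, which carry signals to Fos and Egr1, 8 were measured. None was 2-fold on t10,c12-CLA, where 4 were above control and 4 below, against 49.1% above control over all measured genes. On c9,t11-CLA Map2k2, a kinase of ERK, was 2.17-fold lower, at 508.8 against 1103.5 on control. The lower of these is just above the floor, and Map2k2 was no longer measured with arrays set to equal medians. It was the only gene of the 8 past 2-fold on c9,t11-CLA, against 2.78% lower over all measured genes.

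The isomers differ in where their conjugated double bonds sit and in which of them is cis and which trans, and they were fed at the same dose for the same time. Of the 8 members measured on both CLA arrays, 5 were higher and 3 lower on t10,c12-CLA than on c9,t11-CLA, between -0.94 for Ier2 and 0.90 for Atf3. Over all 5017 measured probe sets 45.6% were higher on t10,c12-CLA. Jun, Junb and Dnajb1 were higher at 0.63, 0.50 and 0.57. Hspa8 was lower at -0.52, alongside Hsph1. Egr1, at 0.02, was nearly equal. No interval can be given for these differences with 1 array each, so they show neither a difference nor a likeness of the isomers. Over the heat shock list 12 genes were higher and 12 lower, against 45.7% higher over all 4382 measured genes. The list median was 0.04, against -0.05 over those genes. The sign of that median was not stable. It was -0.08 after quantile normalization or without marked probe sets, and -0.09 with either other floor, at the 25th or the 75th percentile. Hspa4l was at least 2.0-fold lower on t10,c12-CLA, at 270.8, than on c9,t11-CLA, at 982.5. Over genes above the floor on both arrays, background shares were 3.47% at least 2-fold higher and 2.56% lower. For bounds a share was computed only for lower signals in c9,t11-CLA over control. The bounds of Hspa4l, Dusp2 and Ppp1r15a therefore have no like share beside them. The list of other immediate early genes had a median of 0.16, with 17 of 27 higher, against 45.7% over all measured genes. Of the 27, 2 were at least 2-fold higher. Those were Ccn2 at 1.60 and Klf6, a Kruppel-like factor, at 1.18, named after their values were seen. The count was 1 with equal medians or quantile normalization and 0 when the floor was the 75th percentile, and the 507.8 of Ccn2 on c9,t11-CLA lies just above the floor. In the other direction Dusp2 was at least 2.7-fold lower on t10,c12-CLA, at 197.7, than on c9,t11-CLA, at 1325.8.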

How the data were processed

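Liver RNA of apolipoprotein E-deficient mice on 3 diets was measured on 1 Affymetrix array per diet. Biotinylated cRNA was made from 8 µg of total RNA, per the labels' protocols, and the authors deposited MAS5 signal intensity values, per the submitters' processing notes. The MAS5 version, detection calls and pooling are not given in the sources used here. The deposited intensities were linear and not negative, and had the same 2%-trimmed mean of 1501 on every array, a common scaling made before deposit. No further scaling was applied. Depth has no meaning for arrays, and their number limits the precision.

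Symbols came from the platform annotation, updated through Entrez identifiers in a RefSeq table of GRCm38.p6. Of 12488 probe sets, 10833 had 1 symbol (10817 found in RefSeq), 396 several, 1193 none, and 66 were array controls. The last 3 kinds were left out. A list gene was represented by its probe set of highest mean log2 signal. Motifs were searched in RefSeq promoter windows.

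The members, lists, floor and named-gene rule were chosen with earlier results of these data known. That rule named all member probe sets, up to 6 genes per list with the largest differences in each comparison with control, and any list gene with a bound past 2-fold. Not all genes it allows are described, and that choice, like Hspa1a, Fosb and Klf6 outside it, was made with the values in view. The counting step was checked on made-up data with known answers. Alternatives were equal medians, quantile normalization, floors at the 25th and 75th percentile, a pseudocount of 50, leaving out marked probe sets, and averaging a gene's probe sets. Python 3.11.15, numpy 2.4.6, pandas 2.3.3, scipy 1.17.1 and matplotlib 3.10.9 were used.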

Additional observations from a re-analysis of the deposited data

How the results depend on the processing

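No paired analysis was possible because each diet had 1 array. Of 78 recomputed counts and list medians, 74 stayed within 1.5 times the reported count or within the probe-set SD of the reported median. Of 145 recomputed member differences 144 stayed within that SD. These limits are wide. The SD, 0.39 to 0.50, exceeds the size of each of these list medians, so a median could change sign and still count as held. A member count of 0 could move only by a new call. Differences that a setting left unmeasured are not among the 145. With the floor at the 75th percentile only 2, 3 and 2 members were measured for t10,c12-CLA over control, c9,t11-CLA over control and between the isomers. Without that change of floor 9, 8 and 8 were. No recomputed member difference changed sign, but that of Jun on c9,t11-CLA over control was 0.00 with equal medians and 0.02 after quantile normalization. The 4 counts that did not hold were small. With the floor at the 75th percentile, 1510.9, 0 members were at least 2-fold lower on t10,c12-CLA than on control, since Hspa1b was then no longer measured, and its bound on c9,t11-CLA became -0.12. With the floor at the 25th percentile, 144.9, 1 member, Hspa1b, was measured as at least 2-fold lower on c9,t11-CLA than on control, and 1, again Hspa1b, as past 2-fold higher on t10,c12-CLA than on c9,t11-CLA. With equal medians 1 member, Atf3, reached 2-fold between the isomers, higher on t10,c12-CLA than on c9,t11-CLA. Without marked probe sets neither Atf3 nor Junb was measured. The median of the heat shock list between the isomers, 0.04, was -0.08 after quantile normalization or without marked probe sets and -0.09 with either other floor. With the lower floor the background shares past 2-fold were 5.11% higher and 3.63% lower for t10,c12-CLA over control, 8.41% and 6.16% for c9,t11-CLA over control, and 7.04% and 6.79% between the isomers. Signals near the floor, among them Jun and Gadd45g on control, limit these folds.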
